A study of Mus musculus with 6 samples.

Results

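Glucose metabolism was followed through 36 listed genes, from the transporters that take up glucose to the enzymes that turn it into pyruvate, lactate, pentoses or, in the reverse direction, hexoses. The genes were listed with earlier results of these data known. Their probe sets are those whose platform annotation names exactly 1 gene, and where a gene had several, the brightest on average over the 6 arrays stands for it. Of the 36 genes, 29 could be tested, out of 8693 genes tested in all. *Aldoc* and *Eno2* lay below the filter on low values, *Gapdh* had only Affymetrix control probe sets, and *Hk3*, *Gpi1*, *Eno1* and *G6pdx* had no probe set that names them alone.

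The arrays hold RNA of thymocytes from untreated 3-week-old C57BL6 mice, all deficient for *Cd3ε* (CD3e-/-), in which thymocytes stop at an immature stage before a T cell receptor is made. The 3 arrays labelled SCLtg LMO1tg come from mice that also carry the oncogenes SCL, driven by the Sil promoter, and LMO1, driven by the Lck promoter. The 3 arrays labelled control come from CD3e-/- mice without these transgenes. No sort of the thymocytes before RNA extraction is described in the sources used here. RNA of other cells of the thymus can be present, and in such bulk samples fewer cells of a type and less RNA per cell cannot be told apart. Whether each array had an animal of its own is not stated, and p-values therefore measure only the spread between these samples, which may be technical.

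Values are log2 RMA expression, in which a difference of 1 is a doubling, and every difference is the arrays labelled SCLtg LMO1tg minus the arrays labelled control. The labels are used as they stand, although *Lmo1*, one of the transgenic oncogenes, went against them. It stood at 5.11, 5.07 and 4.86 in the arrays labelled SCLtg LMO1tg, against 6.64, 6.84 and 6.77 in the arrays labelled control (limma adjusted p = 8.3e-04). *Tal1*, the gene of SCL, was under the filter, at 4.55, 4.63 and 4.71 in the arrays labelled SCLtg LMO1tg and 4.35, 4.27 and 4.44 in the arrays labelled control. *Cd3e*, the disrupted gene, was read at 8.56, 8.53 and 8.65 in the arrays labelled SCLtg LMO1tg and 8.41, 8.42 and 8.72 in the arrays labelled control. No source used here says whether these probe sets read the transgenes or the disrupted locus. The direction given for *Fbp1* below is opposite to the one in the study's own list. The paper also counts *Slc4a1*, higher below, among its down-regulated genes, and reports *Ptcra*, higher below as well, as inhibited by SCL. All directions therefore hold for the labels and not for the genotypes. Across the 6 arrays the 9 bacterial hybridization control probe sets averaged between 9.12 and 10.78. SCLtg LMO1tg replicates 2 and 3 and control replicate 1 had the low signal and the other arrays the high signal, and within-set differences are given beside the main results. Of the markers of immature thymocytes, 11 of 11 on the array passed the filter, with a mean level of 9.31 to 9.61 in the arrays labelled SCLtg LMO1tg and 9.02 to 9.33 in the arrays labelled control.

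Glycolysis splits glucose into pyruvate in the cytosol, with hexokinase, phosphofructokinase and pyruvate kinase as its irreversible steps, and lactate dehydrogenase or the pyruvate dehydrogenase complex then decide the fate of pyruvate. Fructose-1,6-bisphosphatase, encoded by *Fbp1*, catalyses the reverse of the phosphofructokinase step and is best known from liver and kidney. The pentose phosphate pathway branches off at glucose 6-phosphate and gives NADPH and ribose for nucleotides, and thymocytes are known to raise glucose uptake and glycolysis when they start to proliferate.

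The promoters of 4 members that the results turn on are shown with the letters of known regulators of this pathway, because SCL, E proteins and MYC bind E-boxes and HIF1A binds a hypoxia core. Each run is the 250 bases before the transcription start, 5′ to 3′ on the strand of the gene, from RefSeq on GRCm38.p6. Capitals mark CANNTG, the E-box, or ACGTG, the core of the hypoxia response element, on either strand, and the 2 motifs overlap where an E-box reads CACGTG. The windows lie at chr13:62888283-62888532 (minus strand) for *Fbp1*, chr19:41911621-41911870 (plus strand) for *Pgam1*, chr6:124814159-124814408 (minus strand) for *Tpi1* and chr3:104638414-104638663 (plus strand) for *Slc16a1*.
Fbp1: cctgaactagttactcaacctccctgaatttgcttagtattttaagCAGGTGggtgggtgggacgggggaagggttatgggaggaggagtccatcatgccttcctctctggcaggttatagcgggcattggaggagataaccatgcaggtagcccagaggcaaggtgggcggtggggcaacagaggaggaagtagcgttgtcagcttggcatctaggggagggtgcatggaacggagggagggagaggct
Pgam1: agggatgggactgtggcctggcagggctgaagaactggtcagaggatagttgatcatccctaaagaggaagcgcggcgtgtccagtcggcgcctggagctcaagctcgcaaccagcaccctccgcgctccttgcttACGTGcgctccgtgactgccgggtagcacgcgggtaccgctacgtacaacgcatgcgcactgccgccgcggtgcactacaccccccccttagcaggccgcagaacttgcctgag
Tpi1: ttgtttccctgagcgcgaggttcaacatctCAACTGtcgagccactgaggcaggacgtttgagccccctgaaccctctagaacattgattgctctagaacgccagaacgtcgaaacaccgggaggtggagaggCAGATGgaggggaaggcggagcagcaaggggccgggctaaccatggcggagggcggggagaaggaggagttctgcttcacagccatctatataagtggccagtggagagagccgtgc
Slc16a1: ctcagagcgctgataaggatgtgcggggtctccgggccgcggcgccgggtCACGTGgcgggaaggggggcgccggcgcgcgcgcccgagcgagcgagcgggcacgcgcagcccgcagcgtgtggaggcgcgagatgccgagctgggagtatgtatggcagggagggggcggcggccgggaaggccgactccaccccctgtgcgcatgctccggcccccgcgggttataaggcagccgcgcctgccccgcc

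*Fbp1* held 1 E-box, reading CAGGTG with its first base 204 bases before the start, and no hypoxia core. *Tpi1* held 2 E-boxes, *Pgam1* a hypoxia core alone, and *Slc16a1* the shared letters CACGTG. Of the 36 members, 35 were in the promoter table with 49 windows, and *Slc2a3* was not. CANNTG stood in 27 of the 49 windows (55.1%), where 66.2% of all 32851 promoter windows of this length held it. CACGTG stood in 4 of the 49 windows, against 6.02% of all windows, and ACGTG in 16 of the 49 (32.7%), against 16.6% of all windows. The letters of a motif describe the window and do not show that a factor binds there.

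*Fbp1* was the 1 member that passed the test, and it was higher in every array labelled SCLtg LMO1tg. It stood at 7.88, 7.98 and 7.80 in the arrays labelled SCLtg LMO1tg, against 6.43, 6.54 and 6.82 in the arrays labelled control. The lowest array labelled SCLtg LMO1tg lay clear of the highest array labelled control, and the gap between the groups was larger than the spread within either. The difference was 1.28 (SE 0.15, 95% interval 0.94 to 1.63), a 2.43-fold level, with a limma adjusted p of 0.00942. In the low hybridization set alone, with a single control array, *Fbp1* differed by 1.45. In the high set alone, with a single SCLtg LMO1tg array, it differed by 1.19. Rank products, the test named in the methods, called *Fbp1* higher too, at an estimated share of false positives of 0.005. The call was lost without SCLtg LMO1tg replicate 2 or 3 or control replicate 2 (adjusted p = 0.0834, 0.0601 and 0.0893), while the difference stayed between 1.20 and 1.40 whichever array was left out. It is read by a single probe set on this array.

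*Pck2*, the mitochondrial form of phosphoenolpyruvate carboxykinase and the other gluconeogenic member, was read at 7.60, 7.93 and 7.72 in the arrays labelled SCLtg LMO1tg and 7.87, 7.68 and 7.38 in the arrays labelled control. Its arrays overlapped, and the difference of 0.10 (SE 0.17) turned to −0.03 without control replicate 3.

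**Figure D1:**
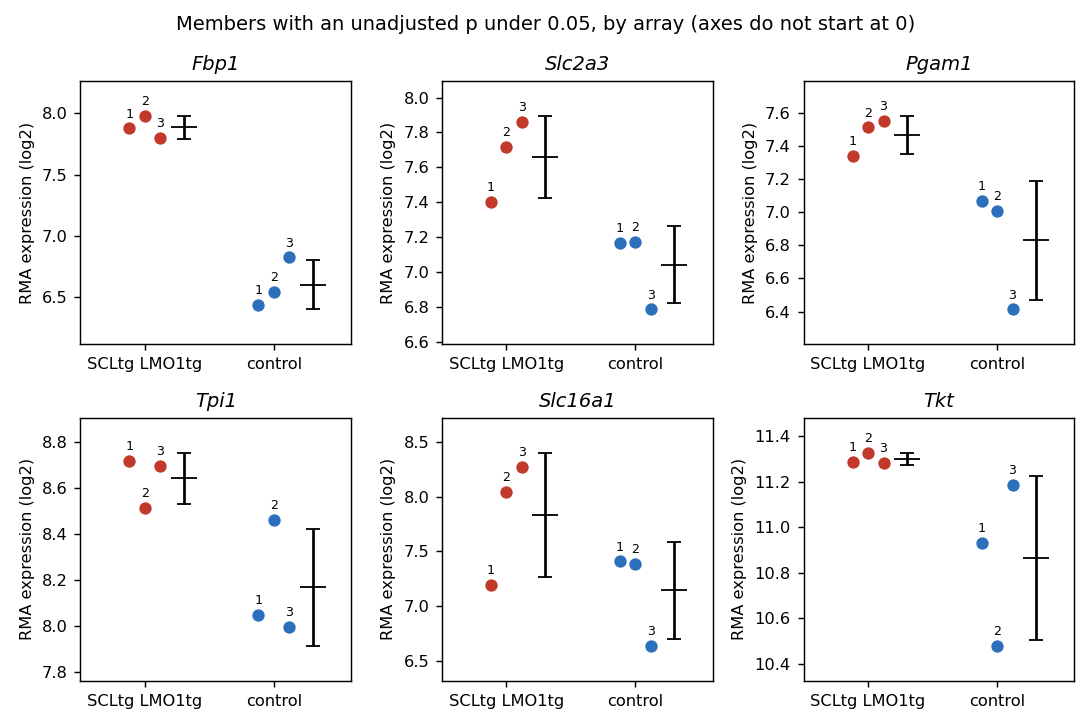
Log2 RMA expression (y axis, not starting at 0) of the 6 members with an unadjusted p under 0.05, by array (numbers are replicates), red for labelled SCLtg LMO1tg and blue for labelled control, with the mean and SD of each group (n = 3). *Fbp1* lies between 7.80 and 7.98 in the arrays labelled SCLtg LMO1tg and between 6.43 and 6.82 in those labelled control, and *Slc16a1* is the gene whose groups overlap.

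Beside *Fbp1*, the other 28 members did not pass the test, and most of them leaned the same way. Across the 29 members, 1 rose and 0 fell by limma at an adjusted p under 0.05, where 0.161% of all genes tested were called in either direction. At an unadjusted p under 0.05, 6 members were higher and 0 lower, while 6.30% of all genes were higher and 3.14% lower. The 6 are *Fbp1*, *Slc2a3*, *Pgam1*, *Tpi1*, *Slc16a1* and *Tkt*. Groups did not overlap for 6 members that were higher (*Fbp1*, *Slc2a3*, *Pgam1*, *Tpi1*, *Pkm* and *Tkt*) and 1 that was lower (*Pfkm*), against 7.32% and 6.37% of all genes. The mean was higher in the arrays labelled SCLtg LMO1tg for 22 of the 29 members (75.9%), where 48.7% of all genes had a higher mean. The median difference was 0.22 over the 29 members and 0.21 without *Fbp1*, beside −0.01 over all genes tested, and the range was −0.37 to 1.28. The all-gene median depended on the filter on low values, at −0.04 without it and 0.05 at the 60th percentile. At that percentile 22 of 27 members had a higher mean, with a median of 0.22. How far brightness enters the members' lean was not tested. After a further quantile normalization of the arrays the members' median was 0.06, beside −0.03 over all genes, with 22 of the 29 means again higher. The 95% interval included 0 for 23 of the 29, and *Slc16a1* had the highest upper bound after *Fbp1*, at 1.36.

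**Figure D2:**
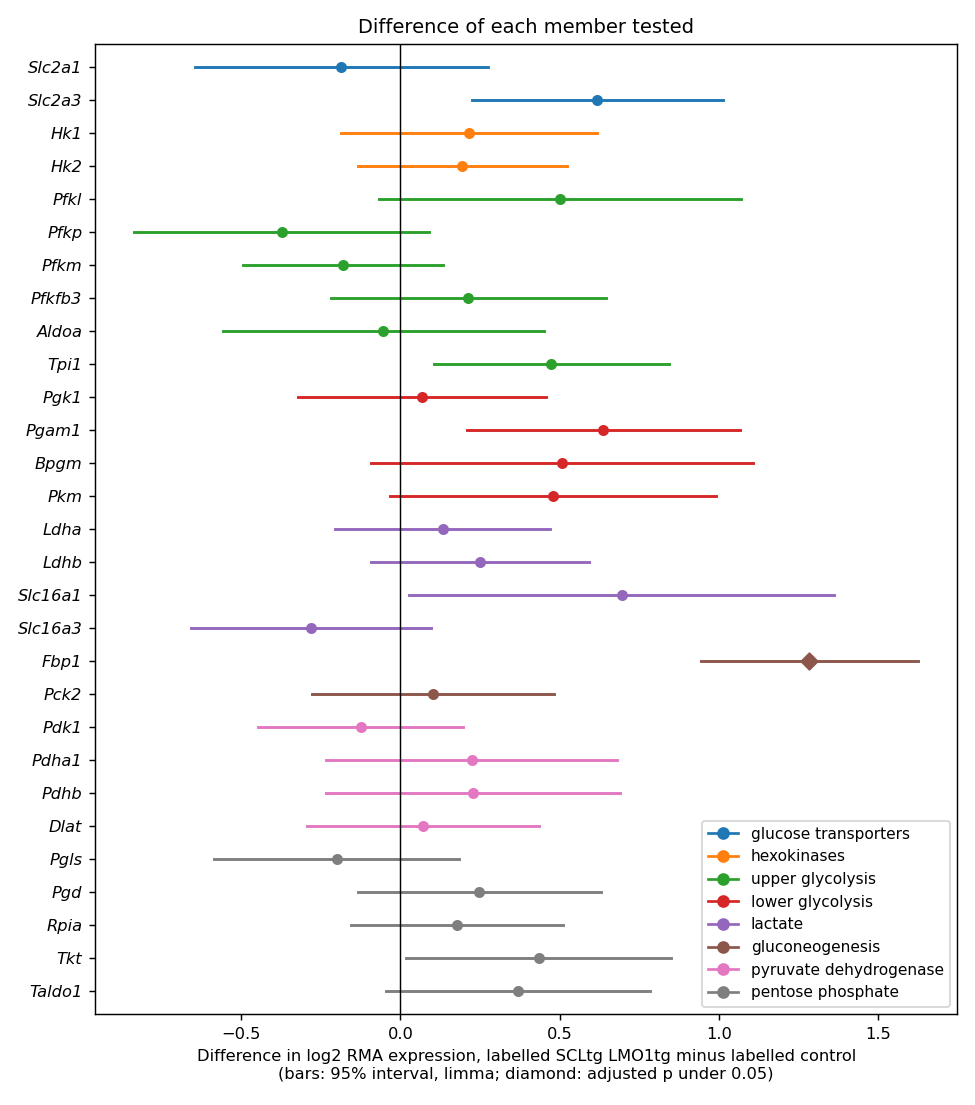
Difference in log2 RMA expression (x axis, labelled SCLtg LMO1tg minus labelled control) of the 29 members tested, 1 row each and coloured by role, with 95% intervals from limma and a diamond for an adjusted p under 0.05. *Fbp1*, at 1.28, is the 1 diamond, and the intervals of 23 of the 29 members include 0.

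The 2 glucose transporters leaned in opposite directions. *Slc2a3*, which encodes the high-affinity glucose transporter GLUT3, stood at 7.40, 7.72 and 7.86 in the arrays labelled SCLtg LMO1tg, against 7.17, 7.17 and 6.79 in the arrays labelled control. The groups did not overlap, and the difference of 0.62 (SE 0.18) had an unadjusted p of 0.00596 and an adjusted p of 0.299. By hybridization set it was 0.62 (low) and 0.42 (high). A second probe set of *Slc2a3* differed by 0.53, again without overlap, and its remaining probe sets, which lay below the filter, differed by 0.03 and −0.21. *Slc2a1*, which encodes GLUT1, the transporter that T cells raise on activation, was read at 5.39, 5.69 and 5.53 in the arrays labelled SCLtg LMO1tg and 5.77, 6.09 and 5.30 in the arrays labelled control. Its difference was −0.18 (SE 0.21) at that probe set and −0.23 and −0.22 at the others, which lay below the filter.

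Hexokinases trap glucose in the cell by phosphorylating it, and neither tested form passed. *Hk1*, the form that most tissues express, had values of 8.42, 8.67 and 8.81 in the arrays labelled SCLtg LMO1tg and 8.41, 8.15 and 8.70 in the arrays labelled control, a difference of 0.22 (SE 0.18). *Hk2*, the inducible form, differed by 0.19 (SE 0.15). The arrays of both genes overlapped.

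In the steps that prepare and split the hexose, 3 members had a higher and 3 a lower mean, with a median of 0.08. The 3 phosphofructokinase subunit genes did not move together. *Pfkl*, the liver-type subunit, stood at 8.64, 9.15 and 8.94 in the arrays labelled SCLtg LMO1tg, against 8.79, 8.63 and 7.81 in the arrays labelled control, a difference of 0.50 (SE 0.25, adjusted p = 0.569) that was 0.20 without control replicate 3. *Pfkm*, the muscle-type subunit, was the 1 member that was lower without overlap, at 7.70, 7.70 and 7.56 in the arrays labelled SCLtg LMO1tg and 7.79, 7.98 and 7.73 in the arrays labelled control. The gap between its groups was narrow, and its difference of −0.18 (SE 0.14) had an adjusted p of 0.664. *Pfkp*, the platelet-type subunit, had the lowest difference of all members, −0.37 (SE 0.21, adjusted p = 0.590), with values of 6.38, 6.46 and 6.76 in the arrays labelled SCLtg LMO1tg and 7.22, 7.01 and 6.47 in the arrays labelled control, which overlap.

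*Tpi1*, the isomerase that interconverts the triose phosphates of the split hexose, stood at 8.72, 8.51 and 8.70 in the arrays labelled SCLtg LMO1tg, against 8.05, 8.46 and 8.0 in the arrays labelled control. Control replicate 2 came close to the arrays of the other label, and the difference was 0.47 (SE 0.16, unadjusted p = 0.0172, adjusted p = 0.407). Its other probe sets differed by 0.32 and 0.70, and the within-set differences were 0.56 and 0.49. *Pfkfb3*, which makes the activator fructose 2,6-bisphosphate, differed by 0.21 (SE 0.19), or by −0.0077 without control replicate 3, since its values were 6.24, 6.25 and 6.30 in the arrays labelled SCLtg LMO1tg and 6.28, 6.27 and 5.61 in the arrays labelled control. *Aldoa*, the main aldolase of most tissues, differed by −0.05 (SE 0.22). *Aldoc*, the brain-enriched aldolase, lay at 5.10, 4.86 and 4.83 in the arrays labelled SCLtg LMO1tg and 5.03, 5.06 and 5.17 in the arrays labelled control, below the filter.

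The 4 tested members listed with the steps from triose phosphate to pyruvate were *Pgk1*, *Pgam1*, *Pkm* and *Bpgm*. All 4 had higher means, where 48.7% of all genes did. Their median difference was 0.49, and none passed the test. *Pgam1*, the phosphoglycerate mutase of most tissues, stood at 7.34, 7.51 and 7.55 in the arrays labelled SCLtg LMO1tg, against 7.07, 7.01 and 6.41 in the arrays labelled control. The groups did not overlap, and the difference was 0.64 (SE 0.19, unadjusted p = 0.00790, adjusted p = 0.337), or 0.47 in the low and 0.63 in the high set. *Pkm*, the pyruvate kinase of non-liver tissues, stood at 8.66, 8.81 and 8.90 in the arrays labelled SCLtg LMO1tg, against 8.64, 8.54 and 7.75 in the arrays labelled control. Its groups were barely parted at their nearest arrays, control replicate 3 lay far below the rest, and the difference of 0.48 (SE 0.23) was 0.20 without that array.

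*Bpgm*, which makes 2,3-bisphosphoglycerate and is best known from red blood cells, had values of 7.70, 8.13 and 8.82 in the arrays labelled SCLtg LMO1tg and 8.03, 7.56 and 7.54 in the arrays labelled control. The difference was 0.51 (SE 0.27, adjusted p = 0.576), with −0.01 and 0.78 at its other probe sets. *Bpgm* was highest in SCLtg LMO1tg replicate 3, as were 5 of the 8 erythroid markers tested. *Car2*, a carbonic anhydrase of red cells, stood at 6.98, 7.74 and 8.51 in the arrays labelled SCLtg LMO1tg and 6.71, 6.56 and 6.68 in the arrays labelled control, a difference of 1.09 (0.71 without SCLtg LMO1tg replicate 3). *Slc4a1*, which exchanges anions across the red cell membrane, differed by 1.07 (0.54 without that array). The mean was higher for 6 of the 8 markers, against 48.7% of all genes. It was lower for 2, *Epor* at −0.30 without overlap and *Klf1* at −0.03. Of the 8 markers 0 passed by limma, and rank products called 2 higher, *Car2* and *Slc4a1*. At an unadjusted p under 0.05, 3 of the 8 were higher and 0 lower, against 6.30% and 3.14% of all genes. Their median difference was 0.44, and the mean level of the 10 on the array was 6.54 to 7.10 in the arrays labelled SCLtg LMO1tg and 6.34 to 6.52 in the arrays labelled control. *Hba-a1* and *Epb42* lay below the filter, and the part of these cells in the *Bpgm* values was not tested.

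*Pgk1*, the phosphoglycerate kinase encoded on the X chromosome, differed by 0.07 (SE 0.17), at 12.21, 11.93 and 12.23 in the arrays labelled SCLtg LMO1tg and 11.86, 12.36 and 11.95 in the arrays labelled control. *Pdha1*, also X-linked, differed by 0.22 (SE 0.20). *Xist*, which the inactive X chromosome transcribes, was at 10.08, 10.37 and 11.16 in the arrays labelled SCLtg LMO1tg and 11.06, 6.15 and 10.91 in the arrays labelled control. *Eif2s3y*, a Y-linked gene, was at 5.43, 6.23 and 2.74 in the arrays labelled SCLtg LMO1tg and 3.15, 5.74 and 2.85 in the arrays labelled control, so both genes varied within each label. In SCLtg LMO1tg replicates 1 and 2 both genes had signal, and the labels give neither sex nor pooling. The 245 X-linked genes tested had a median difference of 0.06, and 0 of them passed by limma. At an unadjusted p under 0.05, 17 were higher and 5 lower, against 6.30% and 3.14% of all genes. *Gapdh*, read by the 3′ control probe set, stood at 11.71, 11.74 and 11.67 in the arrays labelled SCLtg LMO1tg, against 11.53, 11.20 and 11.50 in the arrays labelled control. When control probe sets were let in, its difference of 0.30 (SE 0.15) had an adjusted p of 0.549, and the middle and 5′ probe sets differed by 0.29 and −0.09. *Eno2*, the neuronal enolase, lay below the filter at 3.47 to 3.74 in all 6 arrays.

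Genes of lactate production and export gave a median difference of 0.19. *Slc16a1*, which encodes the lactate and pyruvate carrier MCT1, stood at 7.19, 8.04 and 8.27 in the arrays labelled SCLtg LMO1tg, against 7.41, 7.38 and 6.63 in the arrays labelled control. SCLtg LMO1tg replicate 1 lay below control replicates 1 and 2, and the difference of 0.69 (SE 0.30) had an unadjusted p of 0.0425 and an adjusted p of 0.515. By hybridization set it was 0.75 (low) and 0.19 (high). *Slc16a3*, the carrier MCT4 of strongly glycolytic cells, leaned the other way, by −0.28 (SE 0.17), with 5.52, 5.20 and 4.95 in the arrays labelled SCLtg LMO1tg and 5.54, 5.43 and 5.54 in the arrays labelled control. The lactate dehydrogenase subunits differed by 0.13 (SE 0.15) for *Ldha*, the subunit that favours lactate formation, and by 0.25 (SE 0.15) for *Ldhb*, whose other probe sets differed by 0.35, 0.19 and 0.50.

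The pyruvate dehydrogenase complex carries pyruvate into the citric acid cycle, and its members overlapped between the labels. *Pdhb*, a subunit of its first enzyme, had the largest difference of them, 0.23 (SE 0.21), at 8.97, 9.48 and 9.43 in the arrays labelled SCLtg LMO1tg and 9.22, 9.29 and 8.69 in the arrays labelled control. *Dlat*, the acetyltransferase core, differed by 0.07 (SE 0.16). *Pdk1*, the kinase that shuts the complex and a HIF1A target, differed by −0.12 (SE 0.14), and by 0.12 at its other probe set.

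In the pentose phosphate pathway 4 of the 5 tested members had higher means, against 48.7% of all genes, with a median difference of 0.25. *Tkt*, the transketolase of the non-oxidative branch, stood at 11.29, 11.33 and 11.28 in the arrays labelled SCLtg LMO1tg, against 10.93, 10.48 and 11.19 in the arrays labelled control. The arrays labelled SCLtg LMO1tg lay close to each other, the controls were spread far wider, and the difference was 0.43 (SE 0.19, unadjusted p = 0.0427, adjusted p = 0.515). A second *Tkt* probe set gave the same difference, 0.43, from 8.49, 8.69 and 8.58 in the arrays labelled SCLtg LMO1tg and 8.23, 8.37 and 7.88 in the arrays labelled control, which did not overlap either. *Taldo1*, the transaldolase that works beside it, stood at 8.08, 8.11 and 8.15 in the arrays labelled SCLtg LMO1tg and 8.10, 7.75 and 7.39 in the arrays labelled control, a difference of 0.37 (SE 0.19). *Rpia*, the ribose 5-phosphate isomerase, differed by 0.18 (SE 0.15). Of the oxidative branch, *Pgd*, the dehydrogenase that releases the pentose, differed by 0.25 (SE 0.17), and *Pgls*, the lactonase before it, by −0.20 (SE 0.17).

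Where members had several probe sets, most leaned alike. Of the 29 tested members 18 had several probe sets and 11 had 1, and 8 were read by a probe set whose name ends in _x_at or _s_at, a design mark for probes that can also pair with other transcripts. Among probe sets that passed the filter, those of *Aldoa*, *Bpgm* and *Pdk1* differed in sign. Of the 60 probe sets of the tested members, those of members with 1 probe set included, 52 passed the filter. Of these 52, 42 had a higher mean in the arrays labelled SCLtg LMO1tg. Over all genes tested, with 1 probe set each, the share with a higher mean was 48.7%.

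The members leaned furthest down in 1 array. Control replicate 3 was the lowest of the 6 arrays for 17 of the 29 members, where it was the lowest for 24.3% of all genes tested. SCLtg LMO1tg replicate 3 was the highest for 12 of the 29, against 18.5% of all genes. The mean deviation of the members from their own 6-array means was 0.04, 0.12 and 0.19 in SCLtg LMO1tg replicates 1, 2 and 3, and −0.01, −0.04 and −0.30 in control replicates 1, 2 and 3. Over all genes tested these means lay between −0.03 and 0.03. Control replicate 3 had the high hybridization signal, at 10.78, and its 3′ minus 5′ value for *Actb*, a measure of RNA integrity, was 2.86, where the other arrays lay between 1.48 and 2.71. The same measure for *Gapdh* did not set it apart, at 3.01 within the others' range of 2.38 to 3.51. Without control replicate 3, 19 of the 29 members had a higher mean and the median difference was 0.18. With any other array left out, 22 to 24 had a higher mean and the median lay between 0.16, without SCLtg LMO1tg replicate 3, and 0.28, without control replicate 1, and *Fbp1* differed by 1.40 without control replicate 3.

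**Figure D3:**
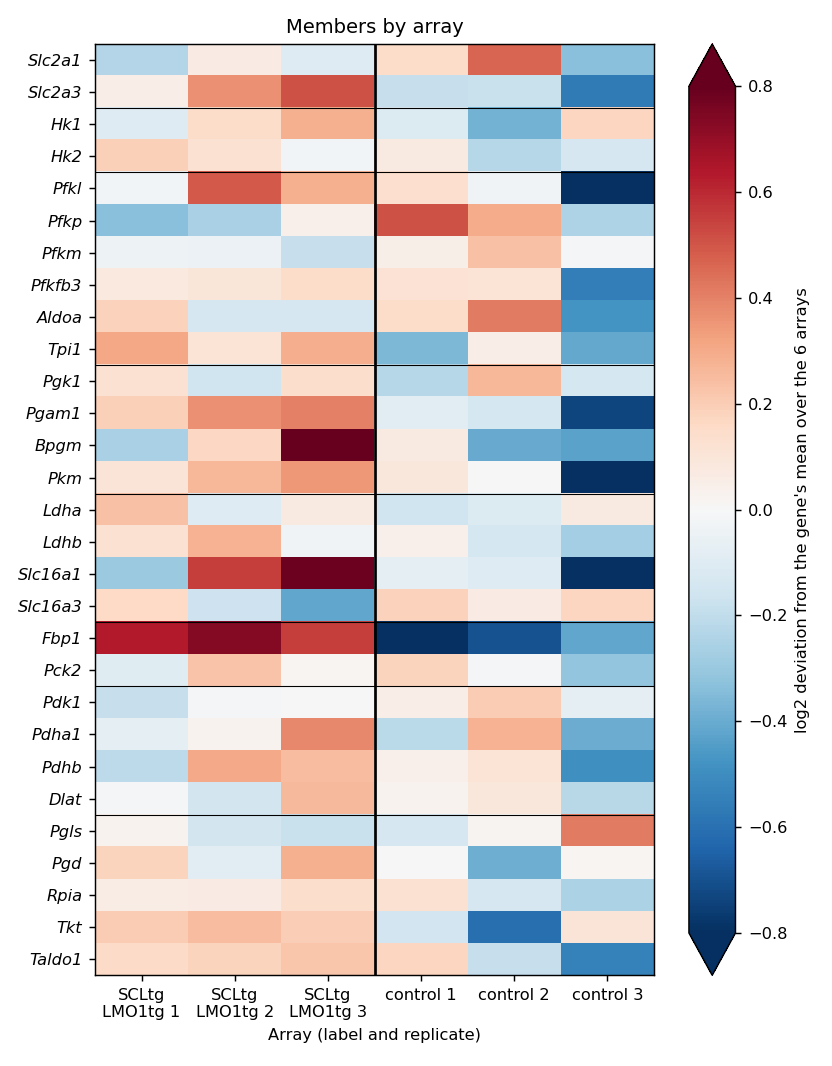
Log2 deviation of each of the 29 members from its own mean over the 6 arrays (colour, capped at 0.8 on either side), with arrays in columns by label and replicate and genes in rows by role. *Fbp1* splits by label, while control replicate 3 is blue in most rows, with a mean deviation of −0.30.

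**Figure D4:**
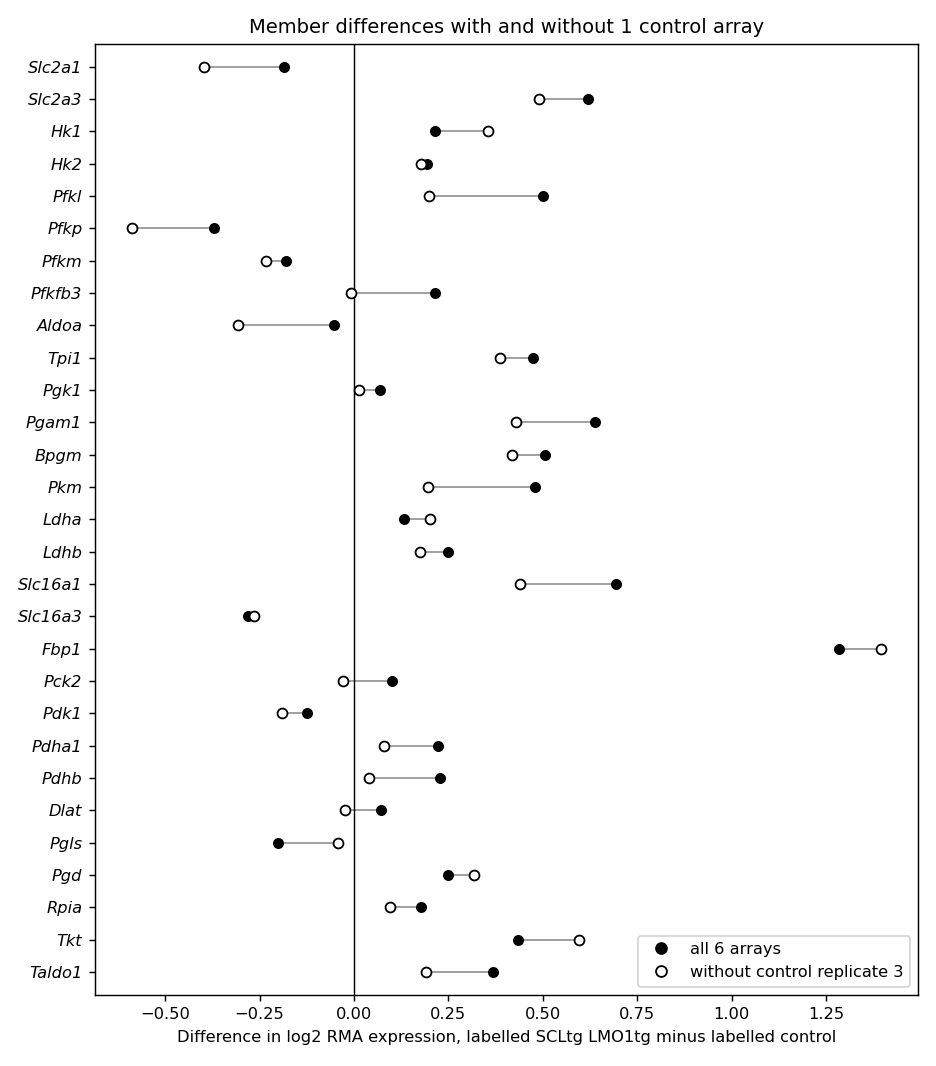
Difference in log2 RMA expression (x axis, labelled SCLtg LMO1tg minus labelled control) of each member with all 6 arrays (filled) and without control replicate 3 (open), 1 row per gene. *Pfkfb3*, *Pck2* and *Dlat* cross 0, and *Fbp1* moves to 1.40.

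The members also varied more among the controls. The SD of the arrays labelled control was larger than that of the arrays labelled SCLtg LMO1tg for 23 of the 29 members (79.3%), and for 65.3% of all genes tested. The median SD over the members was 0.16 in the arrays labelled SCLtg LMO1tg and 0.27 in the arrays labelled control, beside 0.16 and 0.21 over all genes.

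Among the other isozymes and carriers of glycolysis and gluconeogenesis, 1 of 15 tested rose and 0 fell, where 0.161% of all genes were called. The lean of the members was not shared here, since 3 of the 15 had a higher mean, against 48.7% of all genes. The median was −0.09. The gene that rose is *Slc5a9*, a sodium-coupled sugar transporter, at 8.18, 8.23 and 8.27 in the arrays labelled SCLtg LMO1tg, against 7.06, 7.34 and 7.21 in the arrays labelled control, a difference of 1.03 (SE 0.14, limma adjusted p = 0.0222). Its groups did not overlap, and its call was lost without any 1 array other than control replicate 1 (adjusted p = 0.0569 to 0.202), while the difference stayed between 0.96 and 1.09, and it was lost on averaging its probe sets (adjusted p = 0.0558). *Eno3*, the muscle enolase, differed by −0.41 and *Hkdc1*, a hexokinase relative, by −0.30.

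The citric acid cycle list, which takes over where the pyruvate dehydrogenase members end, leaned like them. Of its 22 tested genes 21 had a higher mean, against 48.7% of all genes, 0 passed, and the median difference was 0.21. At an unadjusted p under 0.05, 5 were higher and 0 lower, against 6.30% and 3.14% of all genes. *Fh1*, the fumarate hydratase, stood at 8.52, 8.66 and 8.65 in the arrays labelled SCLtg LMO1tg, against 8.23, 7.83 and 7.58 in the arrays labelled control, a difference of 0.73 (SE 0.18, adjusted p = 0.215). *Aco1*, a cytosolic aconitase that also binds iron-responsive RNA, differed by 0.68, and *Idh3a*, a subunit of the cycle's isocitrate dehydrogenase, by 0.53. This list too had its lowest mean in control replicate 3, with mean deviations of 0.01, 0.15 and 0.22 in the arrays labelled SCLtg LMO1tg and 0.01, −0.19 and −0.20 in the arrays labelled control.

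The remaining lists lay nearer to 0. Pyruvate entry to mitochondria had a median of 0.10 over 3 genes and the other pentose phosphate genes 0.14 over 5, with *Prps2*, a phosphoribosyl pyrophosphate synthetase, at 0.24, and 0 genes of either list passed or had an unadjusted p under 0.05. Other HIF1A targets had a median of 0.00 over 15 genes and split both ways, with 0 passing. At an unadjusted p under 0.05, 4 were higher and 1 lower, against 6.30% and 3.14% of all genes. *Ddit4*, an inhibitor of mTOR signalling, differed by 0.89 (0.40 without control replicate 3), *Higd1a*, a mitochondrial protein of hypoxia, by 0.74, and *Egln3*, a prolyl hydroxylase that marks HIF1A for degradation, by 0.63 without overlap. *Bnip3*, a mitophagy receptor, was the 1 lower gene, at −0.54 without overlap. *Ddit4* and *Higd1a* were both lowest in control replicate 3, at 6.75 and 6.90.

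Regulators of glucose metabolism had a median of −0.05 over 17 genes, and 0 passed. At an unadjusted p under 0.05, 0 were higher and 2 lower, against 6.30% and 3.14% of all genes. *Txnip*, which restrains glucose uptake and is itself induced by glucose, stood at 9.41, 9.41 and 9.53 in the arrays labelled SCLtg LMO1tg, against 10.18, 10.13 and 9.98 in the arrays labelled control. The groups did not overlap, but the difference of −0.65 (SE 0.14) missed the threshold (adjusted p = 0.140). *Txnip* passed after quantile normalization of the arrays (adjusted p = 0.0389). *Hif1a*, the hypoxia regulator, differed by 0.55, and *Pik3cd*, a kinase subunit upstream of AKT, by −0.36.

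**Figure D5:**
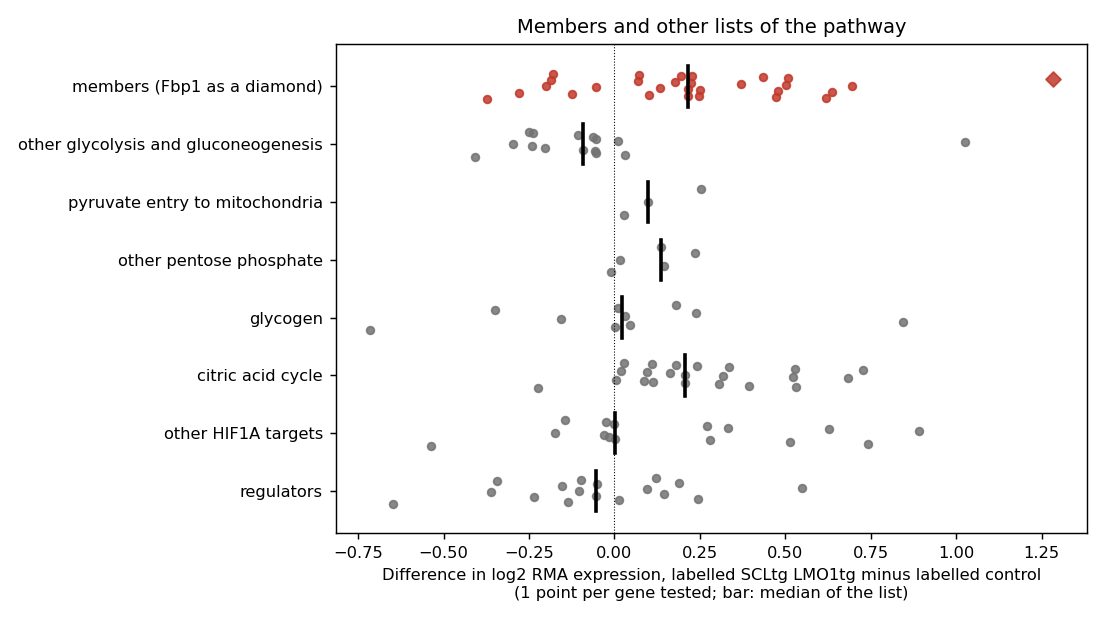
Difference in log2 RMA expression (x axis, labelled SCLtg LMO1tg minus labelled control) of the genes tested in the 29 members and 7 neighbouring lists (rows), 1 point per gene and a bar at the median of each list. *Fbp1*, drawn as a diamond at 1.28, and *Slc5a9* at 1.03 stand apart, and the medians are 0.22 for the members and 0.21 for the citric acid cycle.

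Some markers of other cells moved with the labels beside the members. Of 13 neutrophil markers tested 0 passed by limma, and the median difference was 0.88. The mean was higher for 9, against 48.7% of all genes. It was lower for 4, *Cxcr2*, *Elane*, *Csf3r* and *Mmp8*, with −0.14 the lowest difference. At an unadjusted p under 0.05, 7 were higher and 0 lower, against 6.30% and 3.14% of all genes. Rank products called the same 7 higher. Their mean level was 6.51 to 7.17 in the arrays labelled SCLtg LMO1tg and 5.65 to 6.29 in the arrays labelled control, and none of the defining markers lay below the filter. *S100a8*, a calcium-binding protein abundant in neutrophils, differed by 2.09 (limma adjusted p = 0.0598). With 1 array left out it passed only without SCLtg LMO1tg replicate 2 (adjusted p = 0.0338), and the adjusted p reached 0.220 otherwise. *Fbp1* was highest in SCLtg LMO1tg replicate 2, where the neutrophil mean was the lowest of its label, while in the arrays labelled control both ran in the same order, lowest in replicate 1 and highest in replicate 3. The part of these cells in the members' values was not tested. Macrophage and dendritic cell markers, whose cells can express *Fbp1*, had a median of −0.02 over 11 genes. By limma 0 passed, with 1 higher and 0 lower at an unadjusted p under 0.05, against 6.30% and 3.14% of all genes. The 1 higher is *Lyz2*, a lysozyme of macrophages and neutrophils, at 0.74 without overlap. The mean levels were 6.47 to 6.79 in the arrays labelled SCLtg LMO1tg and 6.48 to 6.64 in the arrays labelled control.

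B cell markers had a median of −0.39 over 5 genes and thymic stroma markers −0.15 over 7, with 0 passing by limma in either list. At an unadjusted p under 0.05, where 6.30% of all genes were higher and 3.14% lower, 0 B cell markers were higher and 2 lower. The 2 are *Ms4a1* at −0.77 and *Cd79a* at −0.64, both without overlap, and rank products called *Ms4a1*. Of the stroma markers 1 was higher at that unadjusted threshold, *Epcam* at 0.57, and 1 lower, *Pecam1* at −0.49. Mast cell markers had a median of −0.20 over 5 genes, of which *Cpa3*, a granule carboxypeptidase of that lineage, fell by 2.53 on the log2 scale (limma adjusted p = 7.6e-05). It was the 1 gene of them with an unadjusted p under 0.05. The other tested mast cell markers differed by −0.23 (*Kit*) to 0.01, and *Ms4a2* and *Fcer1a* lay below the filter. Of the 11 immature thymocyte markers tested 1 rose, *Ptcra*, the pre-T cell receptor alpha chain, at 1.28 (limma adjusted p = 0.0127, or 0.0834 to 0.111 without SCLtg LMO1tg replicate 2 or 3 or control replicate 2), with 0 that fell and a median of 0.19. The mean was higher for 9 of the 11, against 48.7% of all genes. At an unadjusted p under 0.05, 4 were higher, all without overlap, and 0 lower, against 6.30% and 3.14% of all genes. *Rag1* differed by 0.97 and *Rag2* by 0.82, and rank products called *Ptcra* and *Rag1* higher.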

How the data were processed

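RNA was amplified and hybridized to Affymetrix mouse arrays, and the deposited table gives log2 expression, which the authors computed with RMA in affy (versions not given in the sources used here). Its 22690 probe sets still include those that the authors' MAS5 step would drop as absent. The number of arrays, 3 per group, limits the precision.

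The platform annotation pairs 20393 probe sets with a single gene, 691 with several and 1606 with none. The 64 Affymetrix controls were left out. RefSeq holds the gene number of 20364 of the 20393, and 0 symbols needed an update. Probe sets at or above an array's 40th percentile in at least 3 of 6 arrays were kept (12584 with 1 gene), and the brightest of each gene gave 8693 of 12393 genes. limma 3.58.1 (R 4.3.3) compared the groups without covariates, two-sided, with Benjamini-Hochberg adjustment over all genes tested and a threshold of 0.05. The script was tested on simulated data. Rank products, the methods' test, used 9 pairwise differences, 100 permutations and a share of false positives under 0.1. That share is looser than the one behind the study's own list, and the MAS5 step was not applied. The numbers of calls are therefore not comparable with that list.

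Members, lists of other pathway genes and cell type markers were chosen with earlier results of these data known. All members are named. Every array is given for *Fbp1*, for members with an unadjusted p under 0.05 or no overlap and for the member with the largest difference of each role, and some further members were added after their values were seen. Of each list, genes that passed and up to 3 with the largest difference are named, with *Bnip3*, *Epor* and *Klf1* added after their values were seen, and with *Lmo1*, *Tal1* and *Cd3e* as label checks and *Xist* and *Eif2s3y* beside X-linked members. Promoters are the 250 bases before the start in RefSeq's GRCm38.p6 annotation. Alternatives were 2 other filters, quantile normalization, median centring, a trend and robust variance, array weights, blocks for replicate number and hybridization set, each array left out, other uses of probe sets, an adjusted p under 0.1 and rank products.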

Additional observations from a re-analysis of the deposited data

How the results depend on the processing

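Over all genes tested 14 passed. The number was 31 after quantile normalization, 547 with array weights (SCLtg LMO1tg replicate 2 weighed 4.96, the others 0.44 to 1.45), 28 with hybridization sets blocked, 33 at an adjusted p under 0.1, 87 by rank products (45 higher, 42 lower) and 7 (without control replicate 2) to 27 (without control replicate 1) with 1 array left out. With the replicate number as a block it was 9 and 0 members passed, *Fbp1* with 1.28 (adjusted p = 0.0742), nor did *Slc5a9* (adjusted p = 0.159) and *Ptcra* (adjusted p = 0.0742), while *S100a8* did (adjusted p = 0.0310). Residuals of same-numbered arrays correlated at −0.64, 0.01 and −0.38, and the numbers were not read as pairs. Of the members, 4 passed with array weights (*Fbp1*, *Pgam1*, *Slc2a3* and *Tkt*, all higher) and 0 or 1 with 1 array left out, over which *Fbp1* differed by 1.20 to 1.40. In the other settings *Fbp1* alone passed. The members' median was lowest, 0.06, after quantile normalization, beside −0.03 over all genes, and 0.28 at most. Of 446 values of the 28 other members under the alternatives, 11 changed sign, in 6 genes that did not pass. With 1 array left out, *Slc2a1* ranged from −0.40 to 0.0016, *Pfkfb3* from −0.0077 to 0.33, *Aldoa* from −0.31 to 0.14, *Pgk1* from −0.028 to 0.22, *Pck2* from −0.030 to 0.22 and *Dlat* from −0.043 to 0.16, and with array weights *Pgk1* was −0.17 and *Dlat* −0.077. Of 442 values of 28 other named genes, 0 changed sign. These genes were named mainly for large differences in the same arrays, so the choice itself favours this outcome. Why values moved was not tested.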

Other observations

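Glycogen genes, which store and release glucose beside the pathways described above, split both ways. Of 10 tested 0 passed by limma, and the median difference was 0.02. At an unadjusted p under 0.05, 1 was higher and 2 lower, against 6.30% and 3.14% of all genes. Rank products called 1 lower, *Phka2*. *Phka2*, a regulatory subunit of phosphorylase kinase on the X chromosome, stood at 6.90, 6.85 and 6.92 in the arrays labelled SCLtg LMO1tg, against 7.30, 7.63 and 7.89 in the arrays labelled control, a difference of −0.72 (SE 0.17, limma adjusted p = 0.200). The groups did not overlap. *Gaa*, the lysosomal enzyme that degrades glycogen, differed by −0.35, again without overlap. *Phkb*, another regulatory subunit of the kinase, differed by 0.85 (SE 0.33), with 5.15, 5.64 and 6.27 in the arrays labelled SCLtg LMO1tg and 5.53, 4.46 and 4.53 in the arrays labelled control, which overlap.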
